A study of Mus musculus with 6 samples.

Results

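The 34 genes described here are a set of immediate-early genes (22) and heat-shock or related chaperone genes (12) that are known to respond when tissue is digested into single cells. They were taken by symbol from a named list, not by a cut on a measured value, out of 35865 mouse genes with a transcript in the abundance tables. All 34 were found. The list was chosen with earlier results of these data known, so the choice was not blind to them. The libraries are 6 RNA-seq libraries of macrophages sorted from digested hearts, on the C57BL/6J strain. The labels call 3 of them Tet2 KO (Tet2-/-, Tet2 deficient) and 3 Tet2 WT (Tet2+/+), and give donor hematopoietic progenitor cells as the origin of the cells in both groups. They give no age, no sort markers, no digestion time and no part of Tet2 that was deleted. No label ties a library to an animal, so the error behind each p-value is that among the libraries and could be technical only.

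Immediate-early genes are switched on within minutes of a stimulus without new protein being made, mainly through MAP kinases acting on serum response factor at CArG boxes and on CREB at cyclic-AMP response elements (CREs). Many encode transcription factors (the AP-1, EGR and NR4A families), and others encode proteins that switch the response off again, such as the phosphatase DUSP1 and the RNA-decay protein ZFP36 (tristetraprolin). Heat-shock genes are driven by heat-shock factor 1 (HSF1) at repeated GAA/TTC elements when unfolded proteins accumulate, and their products are chaperones. In macrophages both programmes respond to inflammatory ligands and to handling, and Egr2 and Nr4a1 are also regulators of macrophage and monocyte identity.

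Estimated counts per library ran from 37349505 to 55771087. Tet2 itself stood at 78.2 to 82.6 CPM (counts per 1000000 counts, scaled by TMM, the trimmed mean of M values) in Tet2 KO and at 57.5 to 76.1 CPM in Tet2 WT, with a log2 fold change of 0.32 ± 0.14 (SE, edgeR adjusted p = 0.159). Since the deleted part is not named, the level of the whole gene does not test the knockout, and the 2 group names are used as the labels give them. Of 16 pan-macrophage markers (Adgre1, Csf1r, Mertk and others), none was at 0 in any library. Their sum was 31031 to 36537 CPM of each library's own total in Tet2 KO and 19898 to 27225 in Tet2 WT. Of 18 fibroblast markers, 16 were called lower in Tet2 KO. The 18 summed to 911 to 1471 CPM in Tet2 KO and to 7494 to 13448 in Tet2 WT, with Tet2 WT 2 the lowest of its group. Endothelial markers (12) summed to 130 to 196 CPM in Tet2 KO and 201 to 353 CPM in Tet2 WT, with Tet2 WT 3 the highest library. Tek and Eng were called lower, and Tek averaged 15.9 TMM-scaled CPM in Tet2 KO against 95.8 in Tet2 WT. The log2 fold change was above 0 for 8 of the 12 endothelial markers, with a median of 0.16, so the lower sum does not hold for most of them. Pericyte and smooth muscle markers (10) summed to 32.7 to 61.0 and 63.3 to 102 CPM, with Abcc9 called lower. B and T cell markers (12) summed to 451 to 832 and 363 to 466 CPM, with Ighm and Cd79b called higher, and cardiomyocyte markers (12) to 119 to 201 and 153 to 184 CPM, with none called by edgeR in either direction or at an unadjusted p under 0.05, and 0 by DESeq2. Of 10 neutrophil markers, which summed to 148 to 199.7 and 87.7 to 164 CPM, 7 (S100a8, S100a9, Ly6g and others) were at 0 in at least 1 library and Csf3r was called higher. The part of these markers in the members' differences was not tested.

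The members include some of the most abundant messages of these cells. On the scale of TPM, transcripts per 1000000 transcripts, which allows levels of genes of different length to be compared, Hspa8 was the highest member, at 3615 ± 248 TPM in Tet2 KO and 2582 ± 704 in Tet2 WT (SD, n = 3 each). That level ranked it 28 and 38 among 21822 protein-coding genes. Dusp1 followed at 3272 ± 313 and 2203 ± 358 TPM, then Hspa1b at 2420 ± 294 and 1937 ± 905 TPM. Hspa1a, Fos, Junb and Zfp36 came next in both groups, down to Zfp36 at 1460 ± 167 and 1135 ± 212 TPM. At the other end, Egr3 was lowest, at 1.31 ± 0.28 and 2.10 ± 0.28 TPM, below Nr4a3 (9.44 ± 5.91 and 6.68 ± 1.68 TPM). The 22 immediate-early members summed to 14129, 15298 and 15794 TPM in Tet2 KO and to 10585, 13545 and 10038 TPM in Tet2 WT. The 12 heat-shock members summed to 10759, 12413 and 13026 TPM and to 7489, 8018 and 13574 TPM. For the immediate-early sum all Tet2 KO libraries lay above all Tet2 WT libraries, whereas for the heat-shock sum Tet2 WT 3 was the highest of the 6.

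**Figure D1:**
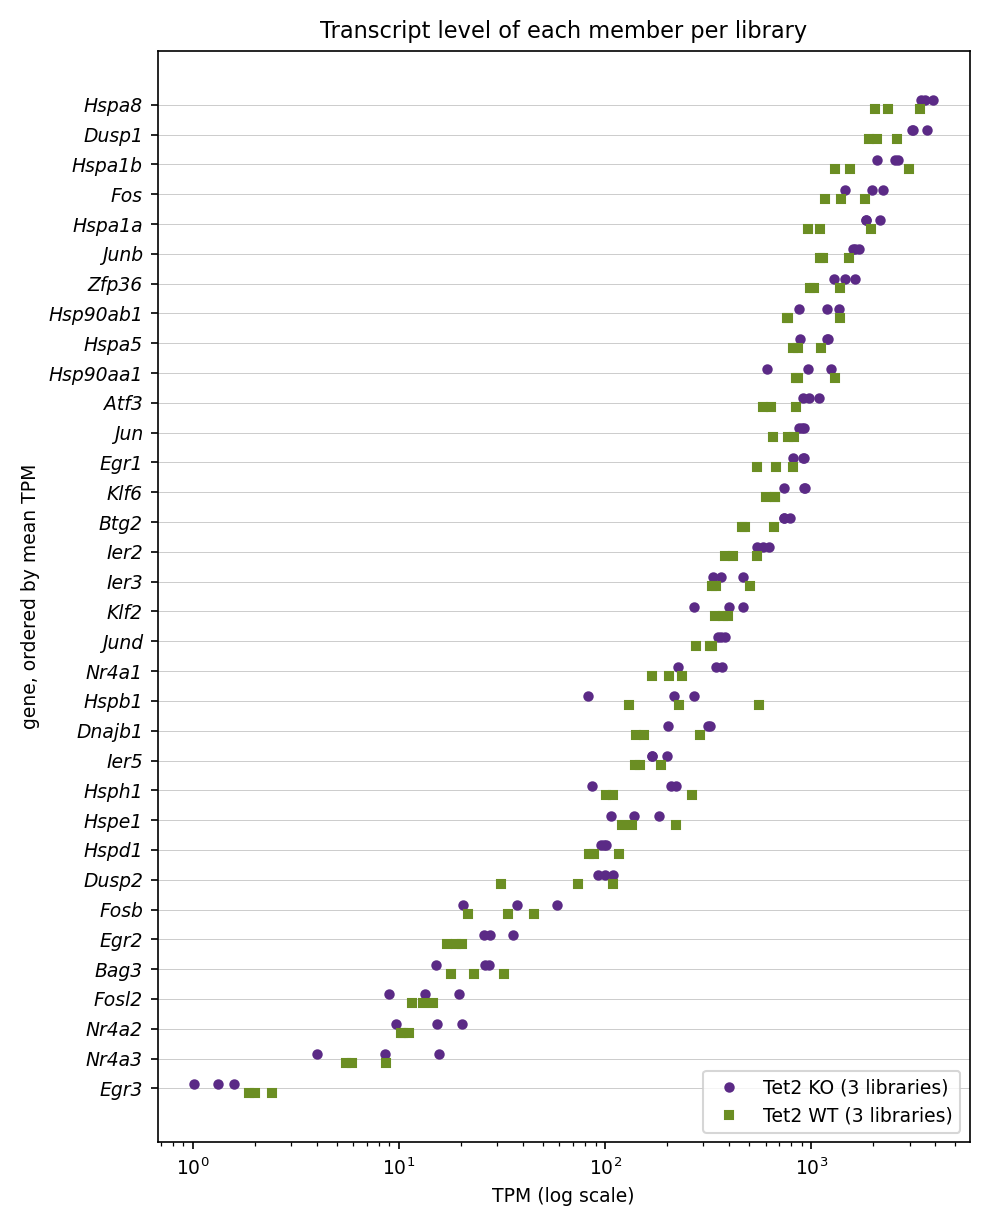
TPM of each member in each library (log axis), with genes ordered by their mean over the 6 libraries; circles are the 3 Tet2 KO libraries and squares the 3 Tet2 WT libraries. Hspa8 and Dusp1 are at the top, Egr3 is at the bottom, and the Tet2 WT squares are widely spread for Hspa1a, Hspa1b and Hspb1.

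The comparison of Tet2 KO with Tet2 WT was made with edgeR's quasi-likelihood test on counts over all 16386 genes that passed the low-count filter, with Benjamini-Hochberg adjustment over all of them and a threshold of 0.05. All 34 members passed the filter. Of the 22 immediate-early members, 6 were called higher in Tet2 KO (Egr2, Nr4a1, Dusp1, Atf3, Btg2 and Klf6) and 0 lower, or 27.3%, where 6.11% of all tested genes were called higher and 10.1% lower. For 0 called lower, 0 members were also lower at an unadjusted p under 0.05 and 0 by DESeq2. DESeq2 called 12 of the 22 higher, where it called 8.18% of all tested genes higher. At an unadjusted edgeR p under 0.05, 13 were higher, where 13.8% of all tested genes were. Of the 12 heat-shock members 1 was called higher (Hspa8) and 0 lower, or 8.33%, a share near that of all genes. In this class 3 were higher and 0 lower at an unadjusted p under 0.05, where 13.8% and 15.1% of all tested genes were. DESeq2 called 3 higher and 0 lower, where it called 8.18% and 12% of all tested genes.

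The log2 fold change was above 0 for 21 of 22 immediate-early members, with a median of 0.52. It was above 0 for 11 of 12 heat-shock members, with a median of 0.36, beside a median of 0.00 over all tested genes. Scaled to the pan-macrophage markers instead, the medians of the 2 classes were -0.13 and -0.32. With the mean log2 CPM of the fibroblast markers as a covariate they were -0.90 and -0.29. The pan-macrophage markers themselves had a median log2 fold change of 0.69 with 11 of 16 called higher, and scaling to them moved the median of all genes by -0.68. Under that scaling none of the 7 called members passed the threshold (log2 fold change 0.15 for Egr2, 0.15 for Nr4a1, 0.065 for Dusp1, 0.029 for Atf3, -0.0056 for Btg2, -0.11 for Klf6 and -0.032 for Hspa8), and Egr3 was called lower. This mean fibroblast level ran from 4.59 to 5.24 in Tet2 KO and from 7.43 to 8.09 in Tet2 WT, and so separated the 2 groups without overlap. With it as a covariate edgeR called 0 of all tested genes, with 1354 under an unadjusted p of 0.05, among them 5 immediate-early and 0 heat-shock members. DESeq2 was not run with this covariate. In bulk libraries such as these, more macrophages among the sorted cells and more message per macrophage cannot be told apart.

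**Figure D2:**
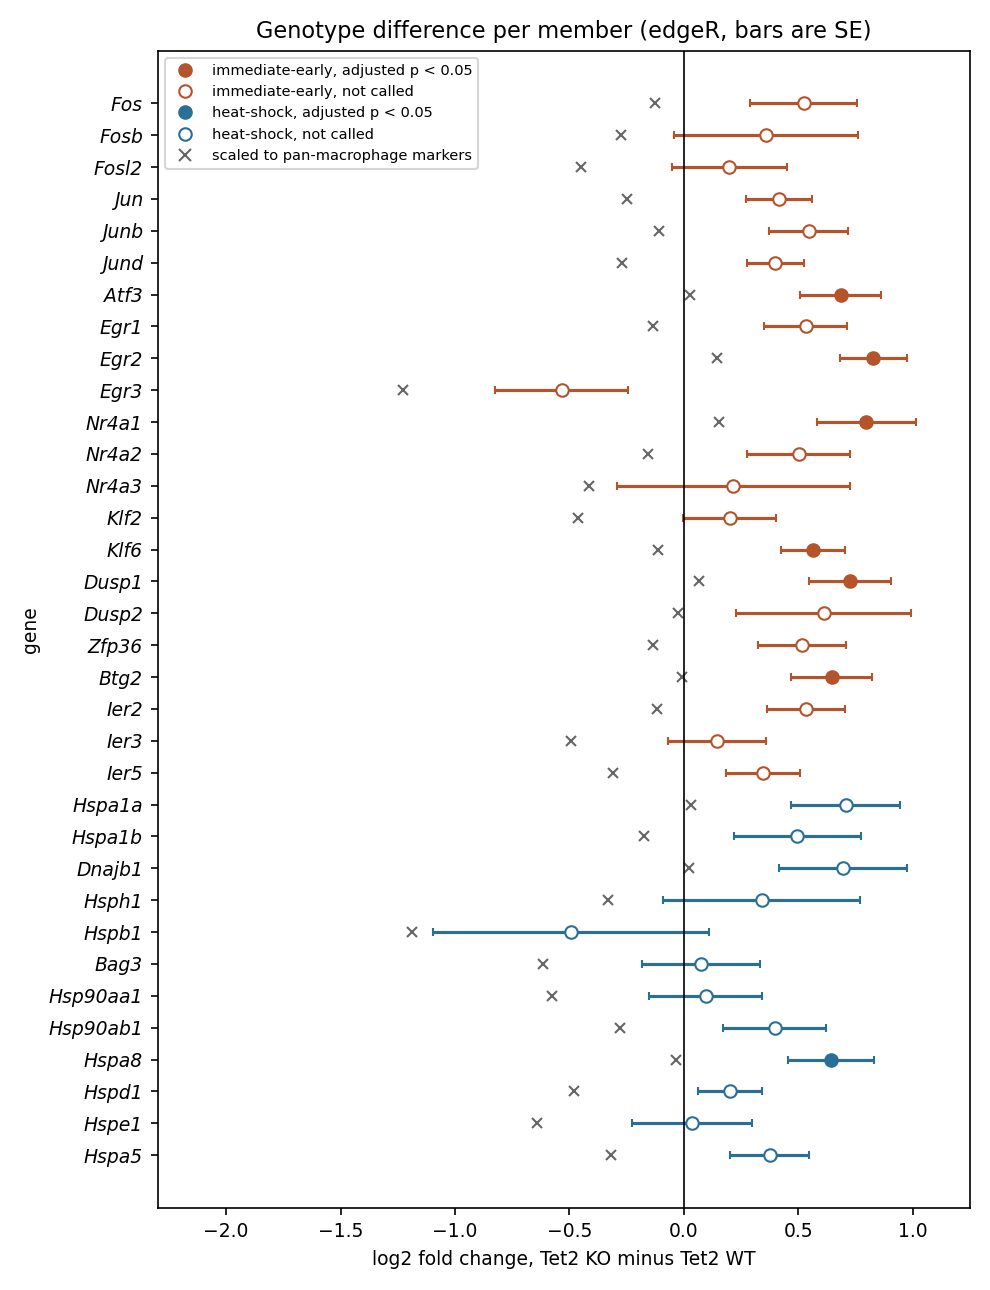
Log2 fold change of each member, Tet2 KO minus Tet2 WT, from edgeR with TMM scaling (points, bars are SE; filled where the adjusted p is under 0.05), with the value after scaling to the pan-macrophage markers as a grey cross. With TMM scaling 32 of 34 members lie above 0, all but Egr3 and Hspb1; with the pan-macrophage scaling 26 of these fall below 0.

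Counting libraries rather than fitting them, all 3 Tet2 KO libraries lay above all 3 Tet2 WT libraries in CPM for 13 of 22 immediate-early members and for 2 of 12 heat-shock members (Hspa1a and Hspa8), where 16.4% of all tested genes did so. Egr3 was the only member with all Tet2 KO libraries below, where 18.1% of all tested genes were. On the TPM scale, which is not rescaled by TMM, the groups were apart with Tet2 KO above for 8 immediate-early members and 1 heat-shock member, where 8.14% of all tested genes were, and with Tet2 KO below for Egr3, where 24.2% were. Egr1, Nr4a1, Nr4a2, Zfp36, Ier2 and Hspa1a were apart in CPM but overlapped in TPM. The share for the heat-shock members in CPM, 2 of 12, was near the background share.

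Upstream sequences of 28 of the 34 members were matched in RefSeq (GRCm38.p6) and searched on both strands. The windows ran from 250 bases before to 50 bases after the start site. No window was matched for Egr1, Egr3, Ier2, Hspa8, Hsp90aa1 or Hsp90ab1, so these members were not searched. The full CRE, TGACGTCA, was found for Dusp1 and Btg2 and in 2.03% of 27025 genes. Its half-site TGACG, which the full CRE contains, was found for 12 of 19 immediate-early and 5 of 9 heat-shock members and in 23.0% of genes. The CArG box was found for Egr2 and Zfp36 and in 1.81% of genes, and the EGR site GCGGGGGCG for 6 of 19 immediate-early members (Fosb, Fosl2, Nr4a1, Klf2, Dusp2 and Zfp36) and in 3.31% of genes. Windows of 4 of the called immediate-early members are shown because they hold these elements, 5′ to 3′ on the gene's strand and ending before the start site of the most abundant transcript; capitals mark the CArG box in Egr2 (chr10:67537719-67537868, plus strand) and the CRE or its half-site, which reads CGTCA on the other strand, in Dusp1 (chr17:26508520-26508722, minus strand), Btg2 (chr1:134079156-134079405, minus strand) and Nr4a1 (chr15:101266596-101266845, plus strand). The AP-1 site TGANTCA was found for 0 of 19 immediate-early and 2 of 9 heat-shock members and in 8.97% of genes. CCAAT was found for 8 of 19 and 6 of 9 members and in 41.1% of genes. The TATA box TATAAA, searched on the gene's strand only, was found for 2 of 19 and 0 of 9 members and in 9.77% of genes. A match is a description of the letters and does not show that a factor binds there.
Egr2: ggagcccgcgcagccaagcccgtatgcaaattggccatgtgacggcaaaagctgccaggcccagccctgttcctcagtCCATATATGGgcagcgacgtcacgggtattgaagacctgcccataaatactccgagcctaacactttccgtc
Dusp1: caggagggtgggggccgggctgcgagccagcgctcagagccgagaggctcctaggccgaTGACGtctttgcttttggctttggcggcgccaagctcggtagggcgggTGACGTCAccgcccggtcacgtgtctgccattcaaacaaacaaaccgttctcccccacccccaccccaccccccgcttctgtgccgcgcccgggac
Btg2: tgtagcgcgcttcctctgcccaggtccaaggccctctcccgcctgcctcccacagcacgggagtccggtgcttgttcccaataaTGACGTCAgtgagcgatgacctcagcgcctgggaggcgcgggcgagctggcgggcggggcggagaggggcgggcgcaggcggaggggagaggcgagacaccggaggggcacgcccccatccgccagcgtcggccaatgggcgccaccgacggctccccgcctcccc
Nr4a1: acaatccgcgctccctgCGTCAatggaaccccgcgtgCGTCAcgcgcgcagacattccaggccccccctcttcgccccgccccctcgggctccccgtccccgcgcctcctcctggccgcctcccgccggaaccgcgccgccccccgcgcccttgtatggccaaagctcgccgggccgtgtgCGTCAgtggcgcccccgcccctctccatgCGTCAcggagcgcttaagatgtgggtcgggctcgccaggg

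The AP-1 and ATF subunits, basic leucine-zipper proteins that pair to bind DNA, had 1 of 7 called higher, Atf3. Atf3, a stress-induced factor of the ATF/CREB family that restrains inflammatory genes in macrophages, stood at 1379, 1343 and 1543 CPM in Tet2 KO against 823, 1107 and 722 CPM in Tet2 WT. All its Tet2 KO libraries were above all its Tet2 WT libraries, and it rose by 0.69 ± 0.18 on the log2 scale (SE, edgeR adjusted p = 0.0266), or 1.61 times. The call was lost when single libraries were left out, with edgeR adjusted p = 0.0597, 0.114, 0.0905 and 0.0981 without Tet2 KO 1, Tet2 KO 3, Tet2 WT 1 and Tet2 WT 3, respectively.

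Fos, whose protein pairs with JUN proteins, stood at 2166, 3472 and 2915 CPM in Tet2 KO against 1907, 2539.5 and 1502 CPM in Tet2 WT. Here the groups overlapped, since Tet2 WT 2 lay above Tet2 KO 1, and the log2 fold change was 0.52 ± 0.23 (SE, edgeR adjusted p = 0.171). Jun itself was at 2123, 2143 and 2166 CPM in Tet2 KO against 1419.6, 1806 and 1593 CPM in Tet2 WT. Its log2 fold change was 0.42 ± 0.15 (SE, edgeR adjusted p = 0.0849). Junb, a JUN protein prominent in activated macrophages, was at 2157, 2107 and 2059.5 CPM in Tet2 KO against 1319, 1796 and 1214 CPM in Tet2 WT. Jund, the JUN gene least dependent on stimulation, was at 443, 429.6 and 424 CPM in Tet2 KO against 295, 359 and 329 CPM in Tet2 WT. For these 3 JUN genes the groups did not overlap and the Tet2 KO libraries lay within a narrow range. Neither Junb, at 0.55 ± 0.17 (SE, edgeR adjusted p = 0.0597), nor Jund, at 0.40 ± 0.12 (SE, edgeR adjusted p = 0.0576), passed the threshold in the fit of all libraries.

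Fosb and Fosl2, other partners of the JUN proteins, varied more between libraries of one group than between the groups. Fosb was at 55.0, 164 and 99.7 CPM in Tet2 KO against 84.0, 114 and 51.2 CPM in Tet2 WT, so that Tet2 KO 2 held the highest value and Tet2 KO 1 a value close to the lowest. Fosl2 ran from 38.9 to 84.1 CPM in Tet2 KO and from 45.5 to 60.4 CPM in Tet2 WT. Their log2 fold changes were 0.36 ± 0.40 (SE, edgeR adjusted p = 0.630) and 0.20 ± 0.25 (SE, edgeR adjusted p = 0.673), and both reversed to -0.097 and -0.12 without Tet2 KO 2.

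Of the EGR zinc-finger factors, Egr2 was called higher, Egr1 was not called and Egr3 had a fold change of the opposite sign. Egr2, which is used as a marker of alternatively activated macrophages, stood at 77.0, 57.8 and 60.0 CPM in Tet2 KO against 33.8, 37.8 and 38.1 CPM in Tet2 WT. Every Tet2 KO library was above every Tet2 WT library by a wide margin, with Tet2 KO 1 highest, and Egr2 rose by 0.83 ± 0.15 on the log2 scale (SE, edgeR adjusted p = 0.00456), or 1.77 times. It was the only member called in all 6 fits that left out a single library, with edgeR adjusted p from 0.00613 to 0.0260 and log2 fold changes from 0.69 to 0.91.

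Egr1, the most abundant EGR gene here and a direct target of serum response factor, was at 2133, 1977 and 2102 CPM in Tet2 KO against 1431, 1761 and 1103 CPM in Tet2 WT. The groups did not overlap, the lowest library was Tet2 WT 3, and the log2 fold change was 0.53 ± 0.18 (SE, edgeR adjusted p = 0.0785). Egr3, the lowest of the members in both groups, was at 2.88, 3.89 and 4.52 CPM in Tet2 KO against 6.37, 4.96 and 5.05 CPM in Tet2 WT. Its log2 fold change was -0.53 ± 0.29 (SE, edgeR adjusted p = 0.267). Most of its signal, 63.8% to 88.9% of the gene's TPM in each library, was given to a single-exon transcript annotated as retained intron, so most of its level was not assigned to a protein-coding transcript.

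The NR4A members encode orphan nuclear receptors whose activity is set mainly by how much is made. Nr4a1 (Nur77), which non-classical monocytes require, stood at 351, 618 and 547 CPM in Tet2 KO against 244, 347 and 281 CPM in Tet2 WT. In CPM, Tet2 KO 1 lay only just above the highest Tet2 WT library, and Tet2 KO 2 and Tet2 KO 3 lay well above it. In TPM the groups overlapped, with Tet2 KO 1 at 226 and Tet2 WT 2 at 235 TPM. Nr4a1 rose by 0.80 ± 0.22 on the log2 scale (SE, edgeR adjusted p = 0.0345), or 1.74 times. It lost its call with single libraries left out, with edgeR adjusted p = 0.0801, 0.113, 0.132 and 0.104 without Tet2 KO 2, Tet2 KO 3, Tet2 WT 1 and Tet2 WT 3, respectively. Nr4a2 (Nurr1) was at 10.8, 17.7 and 13.8 CPM in Tet2 KO against 8.66, 10.7 and 10.5 CPM in Tet2 WT, without overlap. The log2 fold change of Nr4a2 was 0.50 ± 0.23 (SE, edgeR adjusted p = 0.174). Nr4a3 (Nor1) was at 3.43, 17.9 and 7.83 CPM in Tet2 KO against 7.82, 10.7 and 6.71 CPM in Tet2 WT, and its Tet2 KO libraries spanned both extremes of the 6. Its log2 fold change of 0.22 ± 0.51 (SE, edgeR adjusted p = 0.834) turned to -0.57 without Tet2 KO 2.

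Klf2 and Klf6 encode Krüppel-like zinc-finger factors, of which KLF2 restrains and KLF6 promotes inflammatory gene expression in macrophages. Klf6 was at 1443, 1239.7 and 1474 CPM in Tet2 KO against 871, 993 and 946 CPM in Tet2 WT, with no overlap, and rose by 0.56 ± 0.14 on the log2 scale (SE, edgeR adjusted p = 0.0217), or 1.48 times. Its call was lost with single libraries left out, with edgeR adjusted p = 0.0627, 0.111, 0.0679 and 0.0661 without Tet2 KO 1, Tet2 KO 3, Tet2 WT 1 and Tet2 WT 3, respectively. Klf2 was at 353, 635 and 521 CPM in Tet2 KO against 445, 478 and 391 CPM in Tet2 WT. For Klf2 the log2 fold change was 0.20 ± 0.20 (SE, edgeR adjusted p = 0.584). In Klf2 the lowest and the highest library both belonged to Tet2 KO, so the groups overlapped fully.

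Among the 7 feedback regulators, 2 were called higher and 4 had groups that did not overlap. Dusp1, the phosphatase that switches off p38 and JNK and the most abundant immediate-early member, was at 4036, 4175 and 4719 CPM in Tet2 KO against 2482, 3171 and 2166 CPM in Tet2 WT. The lowest Tet2 KO library exceeded the highest Tet2 WT library, and Dusp1 rose by 0.73 ± 0.18 on the log2 scale (SE, edgeR adjusted p = 0.0220), or 1.65 times. Btg2, an antiproliferative protein that recruits the deadenylase of messenger RNAs, was at 1474, 1537 and 1577 CPM in Tet2 KO against 877, 1242 and 811 CPM in Tet2 WT. It also showed no overlap and rose by 0.65 ± 0.18 on the log2 scale (SE, edgeR adjusted p = 0.0349), or 1.57 times. Without single libraries, Dusp1 missed the threshold with edgeR adjusted p = 0.108, 0.0709 and 0.0890 without Tet2 KO 3, Tet2 WT 1 and Tet2 WT 3, respectively. For Btg2 the same occurred with edgeR adjusted p = 0.0705, 0.0554, 0.122, 0.118 and 0.125 without Tet2 KO 1, Tet2 KO 2, Tet2 KO 3, Tet2 WT 1 and Tet2 WT 3, respectively.

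Zfp36, which destroys AU-rich messages such as that of tumour necrosis factor, was at 2442, 3203 and 2739.9 CPM in Tet2 KO against 1794, 2438 and 1626 CPM in Tet2 WT. All Tet2 KO libraries were the higher ones, but the lowest of them lay only just above Tet2 WT 2, and the log2 fold change was 0.52 ± 0.19 (SE, edgeR adjusted p = 0.101). Dusp2, a phosphatase of ERK and p38 in leukocytes, was at 96.5, 107 and 85.8 CPM in Tet2 KO against 64.6, 97.7 and 27.0 CPM in Tet2 WT, and Tet2 WT 3 stood far below the other 5 libraries. Its log2 fold change was 0.61 ± 0.38 (SE, edgeR adjusted p = 0.354). The IER genes encode small, short-lived proteins: Ier2 was at 571, 639 and 659 CPM in Tet2 KO against 399.9, 538 and 351 CPM in Tet2 WT, without overlap. Its log2 fold change of 0.54 ± 0.17 (SE, edgeR adjusted p = 0.0618) missed the threshold. Ier3 ranged over 247 to 365 CPM in Tet2 KO and 214 to 351 CPM in Tet2 WT, and Ier5 over 409 to 508 and 310.2 to 421 CPM. Both overlapped between groups, with log2 fold changes of 0.15 ± 0.21 (SE, edgeR adjusted p = 0.722) and 0.35 ± 0.16 (SE, edgeR adjusted p = 0.194).

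Heat-shock elements were found mainly in the windows of the heat-shock members. A pair of inverted GAA units, TTCNNGAA or GAANNTTC, was found for 7 of 9 heat-shock members with a window, for 3 of 19 immediate-early members and in 17.0% of genes. A run of 3 units was found for Hsph1, Hspd1 and Hspe1 and in 0.662% of genes. The pair of Bag3 and the run of Hsph1 lie after the start site, in the last 50 bases of the window. The windows of Hspa1a (chr17:34972157-34972406, minus strand) and Hspa1b (chr17:34959239-34959488, minus strand) are shown because the copies are nearly the same there, identical at 247 of 250 bases before the start. That of Hspe1 (chr1:55088038-55088131, plus strand) holds the run of units. It lies between the start sites of the most abundant transcripts of the divergent genes Hspe1 and Hspd1, whose annotated spans overlap. That of Hspa5 (chr2:34771970-34772089, plus strand) holds the endoplasmic-reticulum stress element (ERSE), found in 0.137% of genes and in no other member with a window. Capitals mark these elements; the windows run 5′ to 3′ on the gene's strand and end before the start site of the most abundant transcript.
Hspa1a: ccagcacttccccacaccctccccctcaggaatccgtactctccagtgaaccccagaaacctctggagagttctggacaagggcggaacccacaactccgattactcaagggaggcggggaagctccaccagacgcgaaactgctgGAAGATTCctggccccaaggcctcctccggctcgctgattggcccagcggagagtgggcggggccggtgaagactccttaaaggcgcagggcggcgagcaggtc
Hspa1b: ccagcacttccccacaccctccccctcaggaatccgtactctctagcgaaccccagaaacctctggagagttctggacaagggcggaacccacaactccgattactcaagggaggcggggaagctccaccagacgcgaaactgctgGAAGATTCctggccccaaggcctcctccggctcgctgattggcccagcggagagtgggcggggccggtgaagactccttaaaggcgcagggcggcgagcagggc
Hspe1: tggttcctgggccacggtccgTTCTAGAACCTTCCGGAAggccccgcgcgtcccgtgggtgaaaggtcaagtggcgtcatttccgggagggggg
Hspa5: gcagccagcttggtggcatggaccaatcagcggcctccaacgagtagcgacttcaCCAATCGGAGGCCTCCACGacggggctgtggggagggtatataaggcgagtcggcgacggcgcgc

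Hspa1a and Hspa1b, the stress-inducible HSP70 genes, were not called. Hspa1a stood at 4003, 4222 and 4689 CPM in Tet2 KO against 1929, 2247 and 3733 CPM in Tet2 WT. The log2 fold change of Hspa1a was 0.71 ± 0.24 (SE, edgeR adjusted p = 0.0769). Hspa1b stood at 4284, 5475 and 5392 CPM in Tet2 KO against 2449.9, 2956 and 5332 CPM in Tet2 WT, and its log2 fold change was 0.50 ± 0.28 (SE, edgeR adjusted p = 0.282). In both, Tet2 WT 3 reached far above the other Tet2 WT libraries, and for Hspa1b it overlapped the Tet2 KO libraries. Of all 31-base words in their transcripts, 63.8% of those of Hspa1a also occur in Hspa1b and 67.6% of those of Hspa1b in Hspa1a, so how kallisto divided reads between them is uncertain. Their sum does not depend on that division: it was 8288, 9697 and 10081 CPM in Tet2 KO and 4379, 5202 and 9065 CPM in Tet2 WT. Summed, they made up 0.463% to 0.962% of a library's estimated counts and had a log2 fold change of 0.59 ± 0.26 (SE, edgeR adjusted p = 0.173).

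The other genes that HSF1 induces in the cytosol followed the same libraries. Dnajb1, the HSP40 co-chaperone that hands clients to HSP70, was at 442, 718 and 705 CPM in Tet2 KO against 284, 315 and 553 CPM in Tet2 WT. It had a log2 fold change of 0.70 ± 0.28 (SE, edgeR adjusted p = 0.136). Hsph1 (HSP110), a nucleotide exchange factor of HSP70, was at 113, 301 and 225 CPM in Tet2 KO against 118, 112 and 274 CPM in Tet2 WT. For Hsph1 the log2 fold change was 0.34 ± 0.43 (SE, edgeR adjusted p = 0.673). Bag3, which links HSP70 to autophagy, was at 28.2, 50.8 and 51.2 CPM in Tet2 KO against 39.9, 31.2 and 52.6 CPM in Tet2 WT. For Bag3 it was 0.08 ± 0.26 (SE, edgeR adjusted p = 0.888). In each of them Tet2 KO 1 was the lowest Tet2 KO library and Tet2 WT 3 the highest Tet2 WT library. Hspb1 (HSP25 in mouse), a small heat-shock protein, had the largest spread of the 12, at 46.5, 159.7 and 122 CPM in Tet2 KO against 117, 69.1 and 276 CPM in Tet2 WT. Both its lowest value (Tet2 KO 1) and its highest (Tet2 WT 3) follow that order, and its log2 fold change of -0.49 ± 0.60 (SE, edgeR adjusted p = 0.666) turned to 0.25 without Tet2 WT 3. None of these 6 HSF1-inducible members was called by edgeR in either direction, while 2 were higher at an unadjusted p under 0.05 and 2 by DESeq2.

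Hspa8 (HSC70), the constitutive HSP70 of the cytosol, was at 5166, 5189 and 5807 CPM in Tet2 KO against 2782, 3282 and 4295 CPM in Tet2 WT. Its groups did not overlap, Tet2 WT 3 was again the highest Tet2 WT library, and it rose by 0.64 ± 0.19 on the log2 scale (SE, edgeR adjusted p = 0.0454), or 1.56 times. The call held only without Tet2 WT 3 when single libraries were left out, and the edgeR adjusted p was 0.0840, 0.0578, 0.174, 0.128 and 0.0900 without Tet2 KO 1, Tet2 KO 2, Tet2 KO 3, Tet2 WT 1 and Tet2 WT 2, respectively. Hsp90ab1, the constitutive cytosolic HSP90, was at 1267, 1868 and 1659 CPM in Tet2 KO against 993, 1016 and 1633 CPM in Tet2 WT. The log2 fold change of Hsp90ab1 was 0.40 ± 0.23 (SE, edgeR adjusted p = 0.294). Hsp90aa1, its inducible counterpart, was at 516, 1006 and 801 CPM in Tet2 KO against 629, 633 and 912 CPM in Tet2 WT. That of Hsp90aa1 was 0.10 ± 0.25 (SE, edgeR adjusted p = 0.848). Both overlapped between the groups because Tet2 WT 3 was high and, for Hsp90aa1, because Tet2 KO 1 was the lowest of all 6 libraries.

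The chaperonin of the mitochondrial matrix is built from HSP60 (Hspd1) and its lid HSP10 (Hspe1), whose genes share the promoter printed above. Hspd1 stood at 151, 166 and 160.1 CPM in Tet2 KO against 125, 125 and 164 CPM in Tet2 WT. Hspe1 stood at 52.7, 93.9 and 69.2 CPM in Tet2 KO against 58.8, 55.1 and 96.5 CPM in Tet2 WT. Their log2 fold changes were 0.20 ± 0.14 (SE, edgeR adjusted p = 0.397) and 0.04 ± 0.26 (SE, edgeR adjusted p = 0.949), respectively. In both, Tet2 WT 3 stood near or above the highest Tet2 KO library. Hspa5 (BiP), the HSP70 of the endoplasmic reticulum and a target of the unfolded protein response, was at 1958, 1394 and 1819 CPM in Tet2 KO against 1242, 1229 and 1514 CPM in Tet2 WT. It departed from the other 11 heat-shock members within Tet2 KO, where Tet2 KO 1 was its highest and Tet2 KO 2 its lowest library, and its log2 fold change was 0.38 ± 0.17 (SE, edgeR adjusted p = 0.183).

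The 2 classes ordered the Tet2 WT libraries differently, but their mean levels put the Tet2 KO libraries in the same order. All 12 heat-shock members were highest in Tet2 WT 3 among the Tet2 WT libraries, where 29.5% of all tested genes were. By contrast 20 of 22 immediate-early members were highest in Tet2 WT 2 (35.5% of all tested genes), and 13 were lowest in Tet2 WT 3 (33.1% of all tested genes). The 2 exceptions for Tet2 WT 2 were Egr2 and Egr3. Within Tet2 KO, 11 of 12 heat-shock and 14 of 22 immediate-early members were lowest in Tet2 KO 1, where 36.0% of all tested genes were. Genes of a class are not independent of each other, so these counts describe the 6 libraries and are not tests.

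**Figure D3:**
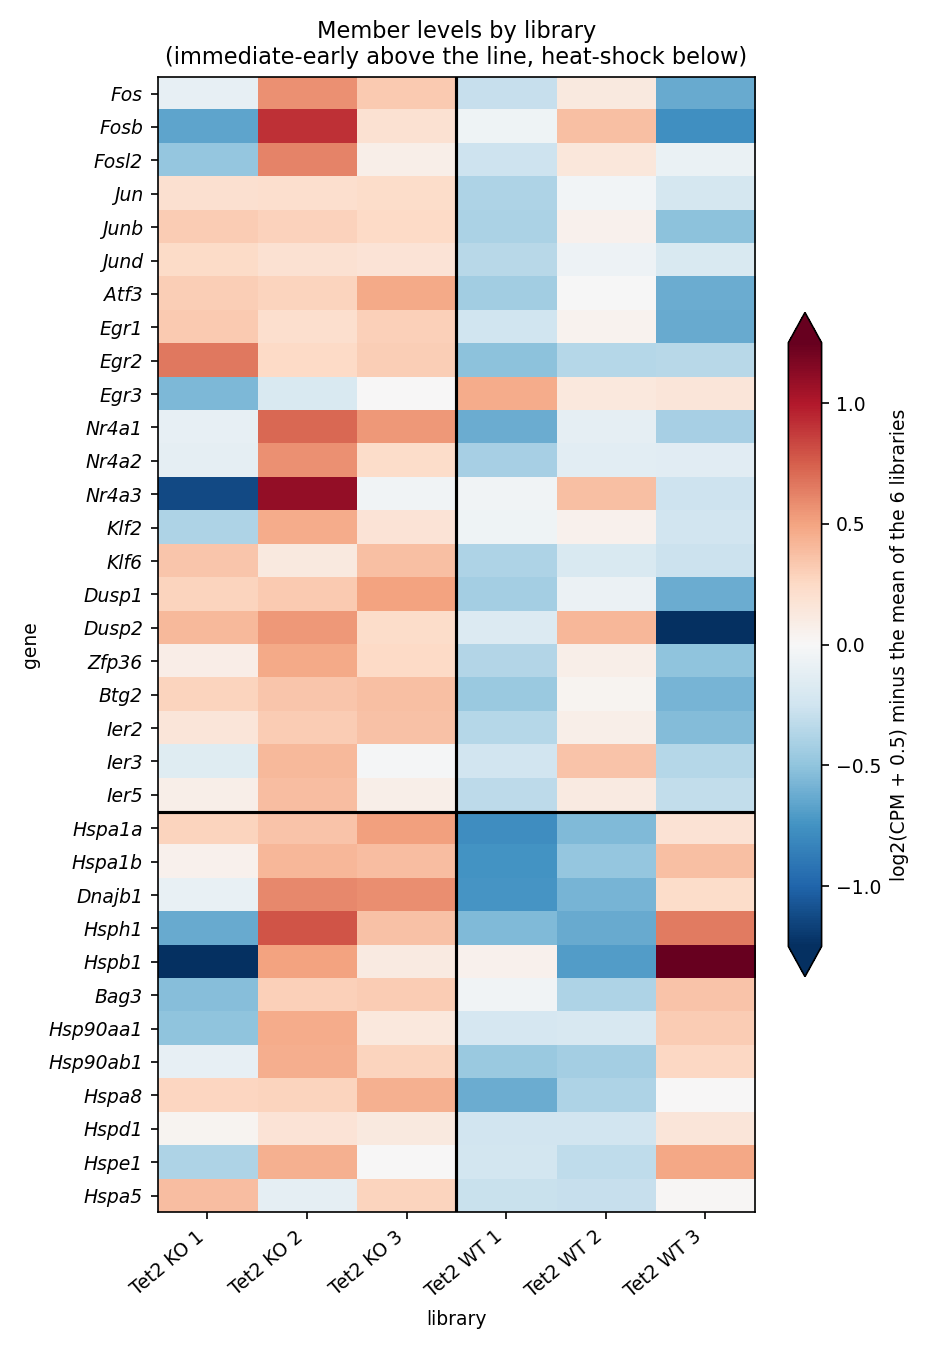
Log2(CPM + 0.5) of each member in each library, minus the member's mean over the 6 libraries (red above, blue below). Most of the lower block turns red in Tet2 WT 3, where Hspa8 and Hspa5 stay near their means. The upper block turns blue there, apart from Egr3. Tet2 KO 1 is blue for Hspb1, Hsph1, Nr4a3 and Fosb.

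Averaged over the 22 immediate-early members, log2(CPM + 0.5) was 8.26, 8.67 and 8.50 in Tet2 KO and 7.97, 8.32 and 7.83 in Tet2 WT. Tet2 WT 2 thus lay above Tet2 KO 1. Averaged over the 12 heat-shock members it was 8.80, 9.40 and 9.30 in Tet2 KO and 8.61, 8.58 and 9.37 in Tet2 WT, so that Tet2 WT 3 was level with the 2 higher Tet2 KO libraries. The immediate-early mean minus the heat-shock mean ran from -0.80 to -0.54 in Tet2 KO and from -1.54 to -0.25 in Tet2 WT, a range that held all 3 Tet2 KO values. The library with the highest immediate-early mean in Tet2 WT, Tet2 WT 2, also had the highest pan-macrophage and the lowest fibroblast marker sum of its group. Within Tet2 KO the pan-macrophage order was the reverse. Tet2 KO 2, with the highest immediate-early mean, had the lowest pan-macrophage sum (31031 CPM) and the lowest fibroblast sum (911 CPM). Tet2 KO 1, with the lowest mean, had the highest pan-macrophage sum (36537 CPM). The part these marker sums play in the result was not tested. Tet2 WT 3, the library with the high heat-shock mean, had intermediate sums of both marker lists (23267 CPM pan-macrophage and 10577 CPM fibroblast). It had the highest endothelial (353 CPM) and pericyte and smooth muscle (102 CPM) sums of all 6 libraries, and their part in its heat-shock level was not tested.

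**Figure D4:**
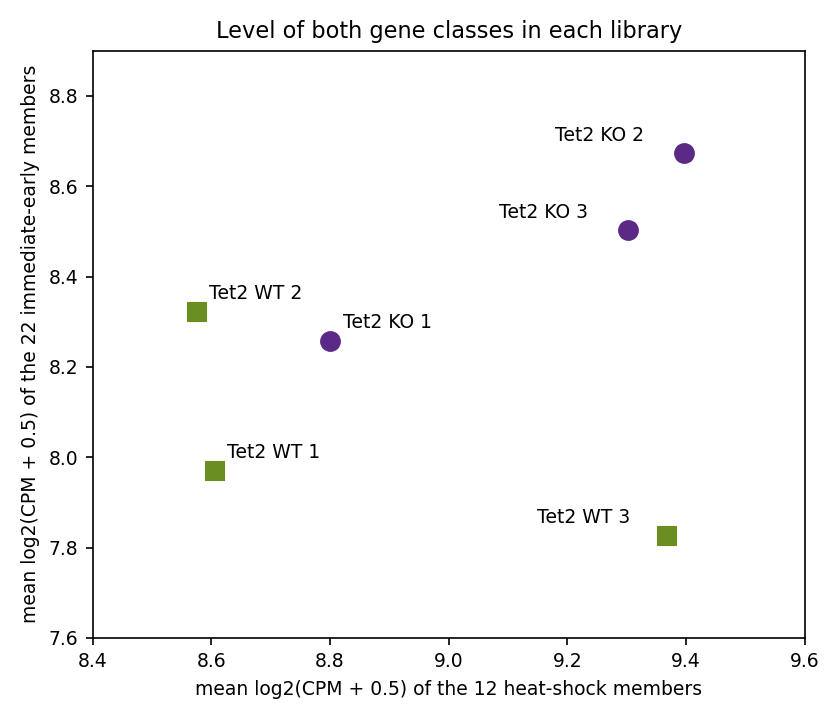
Mean log2(CPM + 0.5) of the 12 heat-shock members (x axis) against that of the 22 immediate-early members (y axis) in each library; circles are Tet2 KO and squares Tet2 WT. Tet2 WT 3 lies at the lower right, with a heat-shock mean of 9.37 and an immediate-early mean of 7.83, and Tet2 WT 2 at the left, with 8.58 and 8.32.

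When immediate-early and heat-shock levels are set against the mean of the pan-macrophage markers in the same library, the direction between the groups turned. The immediate-early mean minus the pan-macrophage mean was -1.33, -0.92 and -1.12 in Tet2 KO and -0.72, -0.86 and -1.14 in Tet2 WT on the log2 scale. The heat-shock mean minus the pan-macrophage mean was -0.78, -0.19 and -0.32 in Tet2 KO and -0.09, -0.61 and 0.41 in Tet2 WT. Both sets of values overlapped between the groups, with mean differences of -0.21 and -0.33.

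Leaving out single libraries changed the number of called members in both classes. Without Tet2 WT 2 edgeR called 12 immediate-early members higher: Atf3, Btg2, Dusp1, Egr1, Egr2, Ier2, Jun, Junb, Jund, Klf6, Nr4a1 and Zfp36. Their log2 fold changes in that fit ran up to 0.96 for Nr4a1, 0.90 for Dusp1 and 0.89 for Atf3. Without Tet2 WT 3 it called 4 heat-shock members higher, Hspa1a at 1.06 (edgeR adjusted p = 0.0111), Dnajb1 at 1.07 (0.0256), Hspa1b at 0.92 (0.0300) and Hspa8 at 0.84 (0.0292), but only 1 immediate-early member, Egr2. Without Tet2 KO 1, Tet2 KO 2, Tet2 KO 3 or Tet2 WT 1 it called 3, 4, 1 and 1 immediate-early members and 0 heat-shock members. Without Tet2 WT 2 it also called 0 heat-shock members. The number called over all genes moved as well. It was 2653 (37.7% higher) with all libraries, 2623 (38.1%) without Tet2 WT 2 and 1850 (32.9%) without Tet2 WT 3. Without Tet2 KO 1, Tet2 KO 2, Tet2 KO 3 and Tet2 WT 1 it was 2050, 3141, 1750 and 1382. Of these, 29.0%, 44.6%, 24.5% and 25.3% were higher, respectively. A fit with 1 library fewer tests with less precision, and the libraries to leave out were not chosen from these values: each was left out in turn.

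**Figure D5:**
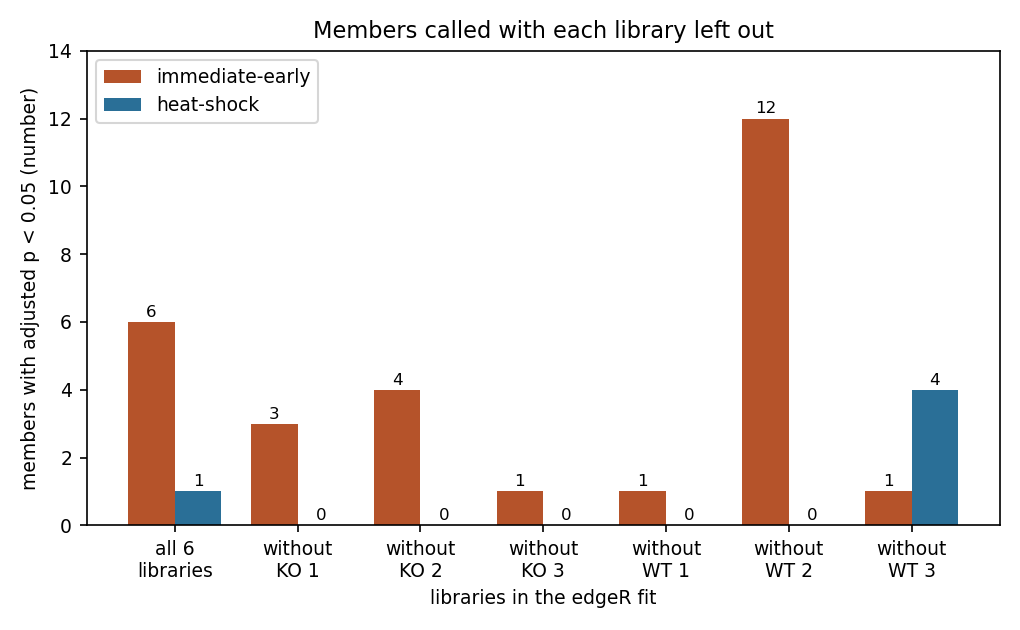
Number of immediate-early and heat-shock members with an edgeR adjusted p under 0.05, all of them higher in Tet2 KO, in the fit of all 6 libraries and in the 6 fits that each leave out 1 library. The immediate-early count is highest without Tet2 WT 2 (12) and the heat-shock count is highest without Tet2 WT 3 (4).

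Spread within the groups was larger for the heat-shock members. Their median coefficient of variation in CPM was 22.1% in Tet2 KO and 31.3% in Tet2 WT, against 13.2% and 20.6% for the immediate-early members. Heat-shock members also share more sequence with other genes. A median of 35.5% of their 31-base words, the word length kallisto matches by, occurred in transcripts of another gene, and 8 of 12 shared over 10%. The median of the immediate-early members was 0% and the most was 6.51%, for Junb with the neighbouring Prdx2. Apart from the pair Hspa1a and Hspa1b the partners were mostly processed pseudogenes, as for Hspa8, Hspd1, Hsp90aa1 and Hspb1. None of the pseudogene partners examined exceeded 3.64 CPM in any library, but a read in a shared stretch cannot be assigned to one copy with certainty.

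At the transcript level, 121 transcripts of the 34 genes were listed and 108 reached 10 estimated counts in at least 1 library. In TPM, 15 of these were higher in every Tet2 KO than in every Tet2 WT library and 1, the retained-intron transcript of Egr3, was lower in each. Over all 66988 transcripts with that many counts, 5.83% were higher in this way and 15.0% lower. Of the members with a retained-intron transcript, Hsph1 was the only one whose share of such transcripts did not overlap between the groups, at 14.7%, 15.7% and 13.5% of its TPM in Tet2 KO and 9.29%, 10.4% and 10.5% in Tet2 WT. The share was high but alike in both groups for Klf6 (45.6% and 44.8%, group means) and Hsp90aa1 (47.9% and 48.4%). Shares of single transcripts rest on how kallisto's model divides reads and were not tested.

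Other genes of the same pathways, listed by role, gave a share of calls of 13.4%, near the 16.2% of all tested genes: of 134 tested, 9 were called higher and 9 lower, but 0 higher and 69 lower with the pan-macrophage scaling. The 18 calls became 10 without Tet2 KO 3 and 9 without Tet2 WT 1. Of 26 tested regulators upstream of immediate-early genes (MAP kinases, SRF and CREB cofactors), 4 (15.4%) were called higher and 0 lower (median log2 fold change 0.12), beside 6.11% and 10.1% of all tested genes; for the 0 lower, 0 were lower at an unadjusted p under 0.05 and 0 by DESeq2. Rps6ka1, the kinase RSK1 that ERK activates, rose by 0.90 ± 0.15 on the log2 scale (SE, edgeR adjusted p = 0.00304). The p38 kinase gene Mapk14 rose by 0.65 ± 0.13 on the log2 scale (SE, edgeR adjusted p = 0.00918) and its substrate kinase Mapkapk2 by 0.46 ± 0.13 (SE, edgeR adjusted p = 0.0395). Of 40 other tested immediate-early genes 3 were called higher and 6 lower (22.5% in either direction), with a median of 0.32. Ppp1r15a (GADD34), which restores translation after stress, rose by 0.85 ± 0.17 on the log2 scale (SE, edgeR adjusted p = 0.00914), Plk2 by 0.72 ± 0.18 (SE, edgeR adjusted p = 0.0204) and Zfp36l1 by 0.42 ± 0.12 (SE, edgeR adjusted p = 0.0429).

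The 3 of the 6 lower genes with the smallest p were Ccn2 and Ccn1, which encode secreted matrix-associated proteins, and Cebpd, a C/EBP transcription factor gene. Ccn2 stood at 19.6, 22.2 and 17.9 CPM in Tet2 KO against 268, 169.8 and 208 CPM in Tet2 WT, and had a log2 fold change of -3.43 ± 0.19 (SE, edgeR adjusted p = 8.28e-05). Ccn1 had a log2 fold change of -2.96 ± 0.25 (SE, edgeR adjusted p = 0.000127) and Cebpd of -0.99 ± 0.17 (SE, edgeR adjusted p = 0.00377). These fell in the same libraries in which 16 of the 18 fibroblast markers were called lower (all but Fn1 and Thy1; median of the 18, log2 fold change -2.99), and the part of that difference in these genes was not tested.

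Of 35 other cytosolic chaperone and HSF genes tested, 0 were called higher and 3 lower (median log2 fold change 0.20); 6 were higher at an unadjusted p under 0.05 and DESeq2 called 0 higher. The small heat-shock gene Cryab fell from 37.6, 23.8 and 36.0 CPM in Tet2 WT to 8.67, 7.10 and 6.93 CPM in Tet2 KO, a log2 fold change of -2.10 ± 0.21 (SE, edgeR adjusted p = 0.000233). Hspb8, another small heat-shock gene, had a log2 fold change of -2.59 ± 0.29 (SE, edgeR adjusted p = 0.000361) and Hspa13 of -0.78 ± 0.13 (SE, edgeR adjusted p = 0.00372). Among 21 tested genes of endoplasmic-reticulum stress, 2 were called higher, Sdf2l1 and Edem1, and 0 lower, where 1 was lower at an unadjusted p under 0.05 and 0 by DESeq2. Sdf2l1 rose by 0.55 ± 0.15 on the log2 scale (SE, edgeR adjusted p = 0.0324) and Edem1 by 0.43 ± 0.12 (SE, edgeR adjusted p = 0.0391). None of 12 mitochondrial chaperones and proteases was called by edgeR or DESeq2, and 2 were higher and 0 lower at an unadjusted p under 0.05. These shares, 0 of 35, 2 of 21 and 0 of 12, are near or below the 6.11% of all tested genes that were called higher.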

How the data were processed

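The 6 libraries (3 Tet2 KO, 3 Tet2 WT) had 1 deposited table each. Trim Galore 0.6.4, kallisto 0.44.0 and build GRCm38 are named in the submitters' processing notes (annotation release not given in the sources used here). The authors deposited, per the file headers, estimated counts, TPM, length and effective length for 118783 transcripts.

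Of these transcripts 98.2% matched GENCODE M21 and were summed to 35865 genes; at most 0.671% of a library's counts stayed unmatched. Summed estimated counts were rounded. Genes passing edgeR's filterByExpr (minimum count 10) were tested with edgeR 4.0.16 (R 4.3.3; TMM, robust quasi-likelihood fit, genotype as the only term), adjusted by Benjamini-Hochberg over 16386 genes. The fit was run on simulated counts with the same spread for every gene and no difference in cell make-up. That run checks the code and not how the fit performs on these libraries. CPM are TMM-scaled except the marker sums. Alternatives used DESeq2 1.42.0, limma 3.58.1 (voom, and log2(TPM + 1) or log2(TPM + 0.1)), other scalings and filters, length-scaled counts, each library left out, a replicate block, and a fibroblast covariate. No 2 libraries of a group agreed within sampling noise (chi-square per gene of 69.2 or more).

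The members and lists were chosen with earlier results of these data known. All 34 members are named, with up to 3 called genes per direction, by smallest p, from each list of related genes; Ddit3 was not matched to a single gene and was left out. The genes and markers used as examples or as copies of members (Prdx2, for instance) were named after their values were seen. Genes that share sequence were found by counting shared 31-base words. Each library held 37349505 or more counts, and an exact permutation test of 3 against 3 libraries cannot go below p = 0.1.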

Additional observations from a re-analysis of the deposited data

How the results depend on the processing

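RLE and upper-quartile scaling and a stricter low-count filter left each of the 34 members on its side of the threshold and 6 immediate-early and 1 heat-shock member called. The immediate-early count moved to 12 with DESeq2, 10 with limma voom, 9 with no low-count filter, 2 with limma on log2(TPM + 1) or log2(TPM + 0.1), 1 (Egr3, lower) scaled to the pan-macrophage markers, 0 with the fibroblast covariate and 1 to 12 with single libraries left out. The heat-shock count moved to 3 with DESeq2, 2 with limma voom or no low-count filter, 0 with length-scaled counts, either TPM fit, the pan-macrophage scaling or the fibroblast covariate, and 0 to 4 with single libraries left out. Over all genes, 6876 were called with the pan-macrophage scaling, 0.334% of them higher against 37.7% in the fit reported, 0 with the fibroblast covariate, and 1382 (without Tet2 WT 1) to 3141 with single libraries left out; without Tet2 KO 3 it was 1750. The TPM fits called 2314 and 2322 genes with 16.6% and 17.2% higher, and the log2(TPM + 0.1) fit moved the median of all genes by -0.15. Of the 134 related genes tested, 18 were called, against 69 with the pan-macrophage scaling, 0 with the covariate, 11 with either TPM fit and 9 to 21 with single libraries left out. Directions that turned had log2 fold changes, with the pan-macrophage scaling, of -0.62 for Bag3, -0.0056 for Btg2, -0.025 for Dusp2, -0.13 for Egr1, -0.12 for Fos, -0.27 for Fosb, -0.45 for Fosl2, -0.58 for Hsp90aa1, -0.28 for Hsp90ab1, -0.18 for Hspa1b, -0.32 for Hspa5, -0.032 for Hspa8, -0.48 for Hspd1, -0.64 for Hspe1, -0.33 for Hsph1, -0.12 for Ier2, -0.49 for Ier3, -0.31 for Ier5, -0.25 for Jun, -0.11 for Junb, -0.27 for Jund, -0.46 for Klf2, -0.11 for Klf6, -0.16 for Nr4a2, -0.41 for Nr4a3 and -0.13 for Zfp36. With the fibroblast covariate they were -0.044 for Atf3, -0.25 for Bag3, -0.50 for Btg2, -0.33 for Dnajb1, -1.41 for Dusp2, -1.58 for Fos, -3.48 for Fosb, -2.72 for Fosl2, -1.54 for Hsp90aa1, -0.48 for Hsp90ab1, -0.21 for Hspa1b, -1.37 for Hspe1, -1.86 for Hsph1, -0.60 for Ier2, -2.31 for Ier3, -1.30 for Ier5, -0.26 for Jun, -0.42 for Junb, -0.10 for Jund, -1.49 for Klf2, -1.46 for Nr4a1, -1.41 for Nr4a2, -5.25 for Nr4a3 and -1.20 for Zfp36. In the limma fits on log2(TPM + 1) they were -0.10 for Bag3, -0.11 for Hsp90aa1, -0.14 for Hspe1 and -0.0028 for Ier3, and on log2(TPM + 0.1) -0.10 for Bag3, -0.11 for Hsp90aa1, -0.14 for Hspe1 and -0.0028 for Ier3. With single libraries left out the log2 fold change ran from -0.078 to 0.31 for Bag3, -0.097 to 0.67 for Fosb, -0.12 to 0.43 for Fosl2, -0.13 to 0.32 for Hsp90aa1, -0.20 to 0.35 for Hspe1, -0.034 to 0.41 for Ier3, -0.57 to 0.62 for Nr4a3 and -0.87 to 0.25 for Hspb1. The cause of these changes was not tested.

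Replicate numbers are shared by the labels of both genotypes, but same-numbered libraries had correlations of their deviations of only 0.049, 0.107 and 0.033, so the numbers were not taken to pair the libraries, although each library correlated best with its own number. With the replicate block 2 immediate-early members (Egr2 and Nr4a1) and 1 heat-shock member (Dnajb1) were called, with 2347 genes in all and 16 of the related genes, and Nr4a3 turned to a log2 fold change of -0.043. Egr3, the lowest member, held 100 to 334 counts per library.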
